A study of Mus musculus with 22 samples.

Results

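Anti-PD-1 antibody added to entinostat was compared with entinostat alone in myeloid-derived suppressor cells of the granulocytic type (G-MDSCs) taken from mouse mammary tumours. Samples were chosen by their titles, which gave 4 samples with entinostat plus anti-PD-1 (called the combination here) and 4 with entinostat alone, 8 of the 22 samples of the series. All 655 endogenous genes of a NanoString nCounter mouse myeloid panel were used, of the 675 genes in the series' table. The assay counts single RNA molecules through fluorescent barcodes, with no amplification. Every animal of these groups was a female neu-N mouse, 7 to 8 weeks old at the start, bearing NT2.5 cells in the mammary fat pad. NT2.5 is a cell line from a spontaneous mammary tumour, and 50000 cells were implanted 3 days before treatment began. Both groups were gavaged every day with entinostat at 5 mg/kg, suspended in 0.5% methylcellulose, for 3 weeks. The combination group was also given intraperitoneal anti-PD-1, at 100 µg per mouse, 2 times a week over the same weeks. Vehicle mice (6 samples), which place levels here and enter the estimate of the spread, got methylcellulose and isotype antibodies. The labels do not say whether mice on entinostat alone got isotype antibody, nor whether these mice also had the anti-HER2 antibody that some studies of this model used. They also do not tie samples to single animals. The p-values of limma rest on the spread within the 5 groups, pooled over all 22 samples, and this spread may be technical in part. The groups not named so far got the same entinostat and anti-CTLA-4, at 100 µg per mouse 2 times a week. Anti-PD-1 was added in one of them and not in the other.

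G-MDSCs are immature cells of the neutrophil lineage that gather in tumours and restrain T cells through enzymes, oxygen radicals, prostaglandins and cytokines. Entinostat inhibits class I histone deacetylases, the enzymes that remove acetyl groups from histones. PD-1 is a receptor of T cells that dampens their activity once it binds PD-L1 (gene Cd274) on tumour or myeloid cells. Lymphocytes are its main carriers, though myeloid cells can hold it too, and lymphocytes freed from it can act on myeloid cells through cytokines such as interferon gamma. The comparison asks which transcripts of the sorted cells differ once the antibody is added to the deacetylase inhibitor.

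The sorted material carried strong neutrophil transcripts in all 8 samples. S100a8, a calcium-binding protein abundant in neutrophils, measured 9359, 11186, 12607 and 6302 normalized counts in entinostat samples 1 to 4 and 8618, 8277, 7339 and 9596 in combination samples 1 to 4. Csf3r, the receptor of the granulocyte growth factor G-CSF, measured 845, 798, 1013 and 722 normalized counts in entinostat samples 1 to 4 and 802, 719.7, 706 and 779.7 in combination samples 1 to 4. A gene counted as above the detection limit of 29.3 normalized counts where its mean log2 value passed it in at least 1 of the 5 groups. The sorting antigen Ly6g did not, with 5.32, 30.2, 18.8 and 22.5 normalized counts in entinostat samples 1 to 4 and 7.48, 5.84, 6.71 and 7.21 in combination samples 1 to 4, nor did the granule genes Mpo, Elane and Mmp8. Markers of other cell types were also measured. Cdh1, the epithelial cadherin, measured 882, 717, 768 and 849.9 normalized counts in entinostat samples 1 to 4 and 918, 886, 887 and 820.1 in combination samples 1 to 4, and 10 macrophage and 6 endothelial genes were above the limit. Of 6 T cell, 3 NK cell and 1 B cell marker on the panel, 1 passed the limit, Gata3, which is not confined to T cells. Pdcd1, the gene for PD-1, and Ifng were below the limit, and Cd3e and Cd8a are not listed among the panel's endogenous genes. In such bulk samples, fewer cells of a type and less RNA per cell cannot be told apart.

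Depth differed between the groups. The barcode counts recovered from the normalized values totalled 107446 to 162080 in the entinostat samples and 178490 to 260317 in the combination samples, with no overlap. A single barcode count was therefore worth 1.77 to 2.32 normalized counts in the first group and 0.959 to 1.5 in the second. Negative controls averaged 7.31 to 16.5 normalized counts with entinostat and 8.63 to 10.4 with the combination, so genes near this background are the least certain. All 8 samples ran on the same cartridge, entinostat in lanes 5 to 8 and the combination in lanes 9 to 12. Housekeeping genes were level, with a geometric mean of 172 to 182 in the first group and 175 to 178 in the second. Over all 22 samples it was 172 to 194. Scaling to these genes would give such values, so they are no independent check that the groups are comparable.

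No gene passed the test. Among 420 genes above the detection limit, 4 of which passed it through another group than the compared ones, 0 (0%) were called at an adjusted p under 0.05 by limma, and the adjusted p ranged from 0.971 to 0.998. Unadjusted p was under 0.05 for 2 genes higher in the combination (0.476%) and 5 genes lower (1.19%). Fold changes here are on the log2(normalized count + 1) scale, which understates the change of low genes. They ran from -1.59 to 0.49 (combination over entinostat), with a median of -0.14 and quartiles of -0.29 and 0.02. The sign was negative for 308 genes and positive for 112, and this split followed the scaling. It became 136 negative and 284 positive after each sample was centred on its median (median 0.10), 198 and 221 after quantile normalization (0.02), and 209 and 211 with TMM factors (0.0013). Directions below are given for the deposited scaling and should be read against its median of -0.14.

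The fit bounded the size of a difference for many genes. The 95% interval of the fold change lay inside -1 to 1, that is under a 2-fold difference, for 247 genes (58.8%), and inside -0.5 to 0.5 for 98. No interval excluded -0.5 to 0.5 as a whole. For 159 genes the interval reached below -1 and for 57 above 1, so a larger difference in those genes lay within the interval. The median standard error was 0.30. The spread of all 22 samples enters these intervals, and in a fit of the 8 samples alone 341 intervals lay inside -1 to 1 and 36 genes had an unadjusted p under 0.05, with 0 called.

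**Figure D1:**
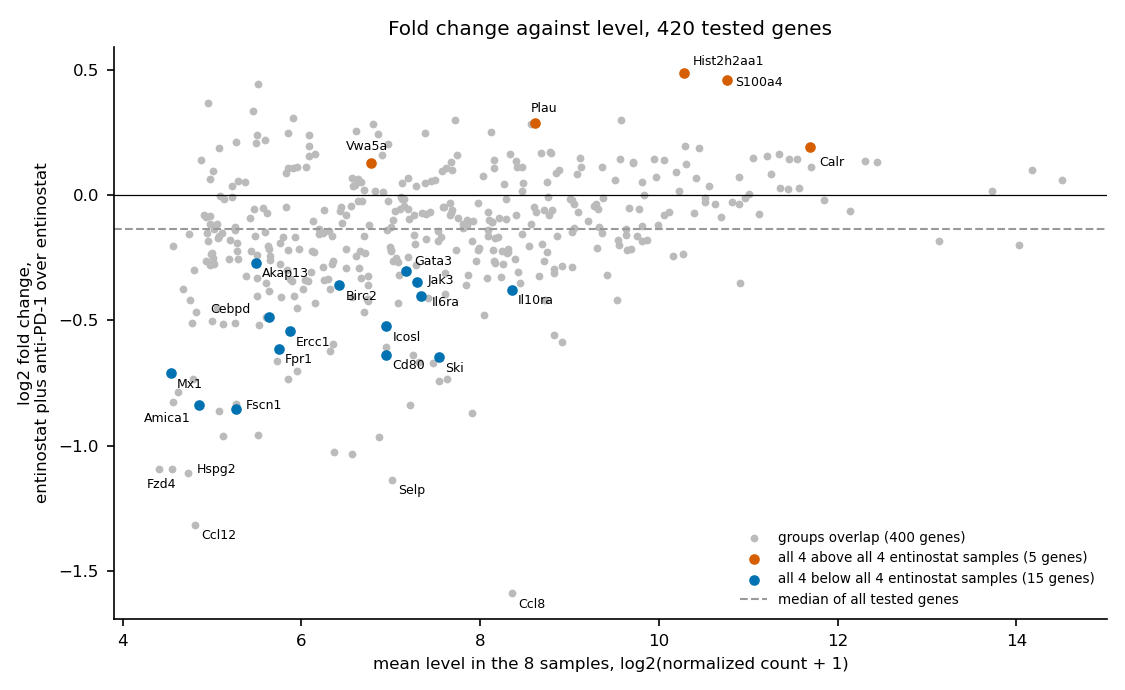
Each point is 1 of the 420 tested genes, with its mean log2 level over the 8 samples on the horizontal axis and the log2 fold change of the combination over entinostat on the vertical axis. Orange and blue points are the 5 and 15 genes whose 4 and 4 samples do not overlap, the dashed line is the median of -0.14, and the largest negative values lie at low levels or among chemokine and vessel genes.

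Samples of both groups failed to overlap for 20 genes, with all combination samples higher for 5 (1.19% of 420) and lower for 15 (3.57%). The smallest p of all tested genes belonged to the histone gene Hist2h2aa1, which codes for a core histone of the H2A type. Its values were 1118, 963, 1041 and 1090.5 normalized counts in entinostat samples 1 to 4 and 1444, 1474, 1567 and 1421 in combination samples 1 to 4. Every combination sample stood above every entinostat sample, by 0.49 ± 0.15 (SE) on the log2 scale (95% interval 0.18 to 0.80), with an adjusted p of 0.971 by limma. The exact permutation test, two-sided over 70 splits, gave p = 0.0286, the smallest that 4 against 4 samples allow. All 20 genes without overlap have this value, which therefore only restates the separation. It is not adjusted over the 420 genes. The vehicle samples averaged 1751 ± 157 normalized counts (SD, n = 6), so the combination samples lay between both other groups. The log2 fold change over vehicle was -0.73 for entinostat (called, adjusted p = 0.0031 by limma) and -0.24 for the combination (adjusted p = 0.20). Vehicle samples also held less leukocyte RNA, with a mean log2 level of 8 pan-leukocyte genes of 7.13, against 8.59 with entinostat and 8.43 with the combination, and the part of this in the levels against vehicle was not tested. These contrasts share samples with each other and with the one reported here, so their values are only set side by side.

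S100a4, which codes for a calcium-binding protein of motile and mesenchymal cells, also separated fully. It measured 1479, 1481, 1543 and 1401 normalized counts in entinostat samples 1 to 4 and 2024, 2252, 1770.4 and 2117 in combination samples 1 to 4. The fold change was 0.46 ± 0.17 (SE) on the log2 scale (interval 0.10 to 0.83, adjusted p = 0.971 by limma, exact permutation p = 0.0286). Its vehicle mean of 2458 ± 432 normalized counts (SD, n = 6) was again above both groups. With other tools on the 8 samples S100a4 passed the threshold (adjusted p = 0.0262 with edgeR and TMM factors, 8.68e-05 with DESeq2), and so did Hist2h2aa1 with DESeq2 (0.0126). With limma array weights 3 genes passed, Hist2h2aa1 (0.014), Ercc1 (0.0382) and Ski (0.0382). No gene passed under the other 24 settings.

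The upstream sequences of both genes are shown, since these are the transcripts that stood highest. They are the 250 bases before the transcription start, 5′ to 3′ on the gene's own strand, from RefSeq with mouse build GRCm38.p6. Capitals mark the CCAAT box, the TATA box TATAAA and the GC box GGGCGG, each searched on both strands with no overlap between motifs. Hist2h2aa1 (RefSeq symbol H2ac18, chr3:96245247-96245496, plus strand) has a near-identical copy, Hist2h2aa2 (H2ac19, chr3:96240375-96240624, minus strand), printed for comparison.
Hist2h2aa1: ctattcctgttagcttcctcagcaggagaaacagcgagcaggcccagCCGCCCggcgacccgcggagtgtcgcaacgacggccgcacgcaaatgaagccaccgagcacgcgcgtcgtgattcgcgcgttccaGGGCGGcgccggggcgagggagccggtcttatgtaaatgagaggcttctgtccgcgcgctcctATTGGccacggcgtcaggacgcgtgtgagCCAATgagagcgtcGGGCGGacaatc
Hist2h2aa2: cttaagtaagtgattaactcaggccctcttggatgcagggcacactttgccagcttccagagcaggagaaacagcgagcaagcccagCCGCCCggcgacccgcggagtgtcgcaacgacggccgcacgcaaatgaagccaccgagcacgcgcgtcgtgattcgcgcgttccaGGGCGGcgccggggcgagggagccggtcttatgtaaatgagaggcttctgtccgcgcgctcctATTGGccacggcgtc
S100a4: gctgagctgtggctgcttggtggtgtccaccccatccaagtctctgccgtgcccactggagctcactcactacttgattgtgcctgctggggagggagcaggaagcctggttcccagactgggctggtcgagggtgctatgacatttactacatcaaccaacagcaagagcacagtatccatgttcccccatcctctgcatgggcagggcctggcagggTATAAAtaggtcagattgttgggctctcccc
The windows of both histone copies, each taken with its first 50 transcribed bases (300 bases), share an unbroken run of 219 bases. Which copy the probe counts was not tested. Hist2h2aa1 holds 2 CCAAT and 3 GGGCGG matches and no TATAAA in its 250 bases, and S100a4 holds 1 TATAAA (S100a4 lies at chr3:90603520-90603769, plus strand). Among 32851 such windows of 250 bases, 33.8% hold CCAAT, 12.4% TATAAA and 32.7% GGGCGG. These matches describe the sequence only.

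The other genes with all combination samples higher had smaller differences. Calr, the endoplasmic reticulum chaperone calreticulin, measured 3072, 3149, 3075 and 3119 normalized counts in entinostat samples 1 to 4 and 3555, 3454, 3493 and 3689.6 in combination samples 1 to 4 (0.19 ± 0.12 (SE) on the log2 scale, adjusted p = 0.971 by limma). Plau, the plasminogen activator urokinase, measured 333, 371, 363 and 351 normalized counts in entinostat samples 1 to 4 and 498, 442, 379.8 and 421 in combination samples 1 to 4 (0.29 ± 0.19 (SE)). Both were below their vehicle means, 3941 ± 506 normalized counts and 546 ± 116 normalized counts (SD, n = 6). For Vwa5a the gap was small, with 99.2, 104, 102 and 110.2 normalized counts in entinostat samples 1 to 4 and 112, 112, 112 and 118 in combination samples 1 to 4, a difference of 0.13 ± 0.13 (SE). Of the remaining tested genes, Nox4, a source of hydrogen peroxide, had the next highest fold change (0.44), with overlapping samples.

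**Figure D2:**
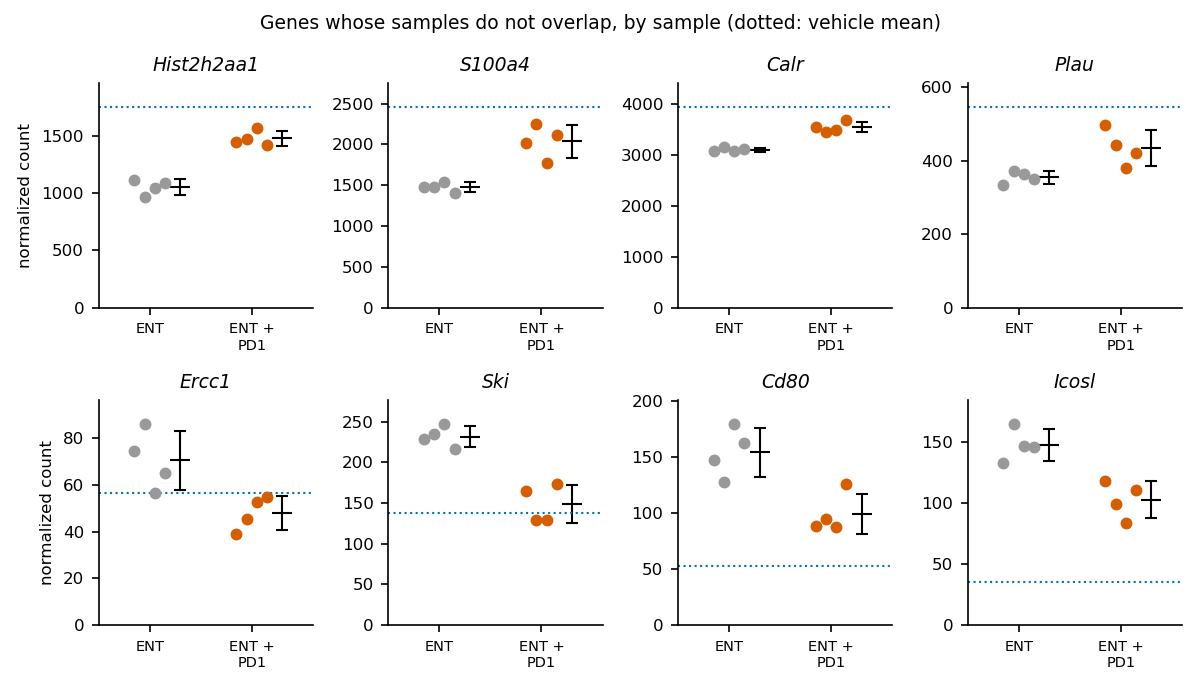
Normalized counts of 8 genes by sample, with entinostat in grey and the combination in orange; the bar beside each group is the mean ± SD of 4 samples, and the dotted line is the mean of the 6 vehicle samples. In the top row (Hist2h2aa1, S100a4, Calr, Plau) every combination sample is above every entinostat sample, and in the bottom row (Ercc1, Ski, Cd80, Icosl) every one is below.

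Among the lower genes the smallest p belonged to Ercc1, a subunit of the nuclease of nucleotide excision repair. Ercc1 measured 74.4, 85.9, 56.5 and 65.2 normalized counts in entinostat samples 1 to 4 and 38.9, 45.2, 52.8 and 54.8 in combination samples 1 to 4. Combination samples all stood lower, by -0.54 ± 0.17 (SE) on the log2 scale (interval -0.90 to -0.19, adjusted p = 0.971 by limma, exact permutation p = 0.0286). Ski, a repressor of SMAD transcription factors, measured 229, 234, 247 and 216 normalized counts in entinostat samples 1 to 4 and 165, 128, 129 and 173 in combination samples 1 to 4. It too separated, by -0.65 ± 0.25 (SE) (interval -1.17 to -0.12, adjusted p = 0.971 by limma, exact permutation p = 0.0286), and its combination mean was close to the vehicle mean of 138 ± 42.5 normalized counts (SD, n = 6). Ercc1 is a low gene, and its fold change was -0.31 after median centring and -0.57 after background subtraction.

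Egr3 and Kitl were also lower at an unadjusted p under 0.05, with some overlap. Egr3, an immediate early transcription factor, measured 268, 281, 312 and 396 normalized counts in entinostat samples 1 to 4 and 196, 182, 272 and 252 in combination samples 1 to 4 (-0.48 ± 0.19 (SE), adjusted p = 0.971 by limma, exact permutation p = 0.0571). Kitl, the ligand of the Kit receptor, measured 381, 359.7, 343 and 272 normalized counts in entinostat samples 1 to 4 and 277, 270.1, 250.3 and 275 in combination samples 1 to 4 (-0.33 ± 0.14 (SE), adjusted p = 0.971 by limma, exact permutation p = 0.0857), and entinostat sample 4 was at the level of the combination. Neither was distinguished from the spread between samples once p was adjusted over 420 genes.

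The remaining 13 genes with all combination samples lower were Amica1, Fscn1, Jak3, Birc2, Gata3, Cd80, Akap13, Fpr1, Mx1, Icosl, Cebpd, Il6ra and Il10ra. Their log2 fold changes ran from -0.85 (Fscn1, an actin bundler) to -0.27 (Akap13). Fpr1, the neutrophil receptor for formylated bacterial peptides, measured 62, 65, 71.5 and 63 normalized counts in entinostat samples 1 to 4 and 52.4, 39.4, 32.6 and 47.6 in combination samples 1 to 4 (-0.61 ± 0.47 (SE)). Jak3, the kinase of common gamma chain cytokine receptors, measured 174, 188, 179 and 164 normalized counts in entinostat samples 1 to 4 and 142, 149, 112 and 153 in combination samples 1 to 4 (-0.35 ± 0.18 (SE)). Il10ra, the binding chain of the interleukin-10 receptor, measured 349, 420.1, 369 and 355 normalized counts in entinostat samples 1 to 4 and 275, 277, 258 and 342 in combination samples 1 to 4 (-0.38 ± 0.47 (SE)), and Mx1, an interferon-induced antiviral GTPase that passed the limit only in the group given all 3 agents, 33.7, 23.2, 22.6 and 38.2 normalized counts in entinostat samples 1 to 4 and 16.5, 17.5, 17.3 and 17.3 in combination samples 1 to 4 (-0.71 ± 0.59 (SE)). The fit takes each gene's spread from all 22 samples, and for Fpr1 and Il10ra this spread was wider than among these 8. After background subtraction 9 genes, not 15, had all combination samples lower, and after median centring 3 did, while 22 were then higher.

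Genes of the PD-1 and CTLA-4 axis and of co-stimulation were mostly below the limit. Of 19 on the panel 8 were above the limit, 7 of them negative and 1 positive, with a median of -0.20 and no gene called. After median centring 5 of the 8 were positive. Cd274, which codes for PD-L1, measured 438, 392, 365 and 198 normalized counts in entinostat samples 1 to 4 and 316, 293, 196 and 320.0 in combination samples 1 to 4. Entinostat sample 4 was as low as combination sample 3, the groups overlapped, and the interval of the fold change was wide (-0.27 ± 0.71 (SE), -1.76 to 1.21). Cd80, a ligand of CD28 and CTLA-4, measured 147, 128, 179 and 162 normalized counts in entinostat samples 1 to 4 and 88.3, 94.9, 87.3 and 125 in combination samples 1 to 4 (-0.64 ± 0.42 (SE), adjusted p = 0.971 by limma). Icosl, the ligand of the T cell co-stimulator ICOS, measured 133, 165, 147 and 146 normalized counts in entinostat samples 1 to 4 and 118, 99.3, 83.4 and 111 in combination samples 1 to 4 (-0.52 ± 0.46 (SE), adjusted p = 0.971 by limma). For both, every combination sample was below every entinostat sample and above the vehicle mean, 52.5 ± 30.1 normalized counts for Cd80 and 34.9 ± 18.5 normalized counts for Icosl (SD, n = 6). Icosl over vehicle was 2.19 with entinostat and 1.66 with the combination, both called. The second B7 ligand Cd86 overlapped (-0.22 ± 0.61 (SE)), as did Cd40, the co-stimulatory TNF receptor of antigen-presenting cells (-0.18 ± 0.51 (SE)). Pdcd1 read 4.32 to 20.9 normalized counts over the 8 samples and Pdcd1lg2, the gene of the second PD-1 ligand, 1.77 to 13.5, both below the limit, so no level can be given for either.

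**Figure D3:**
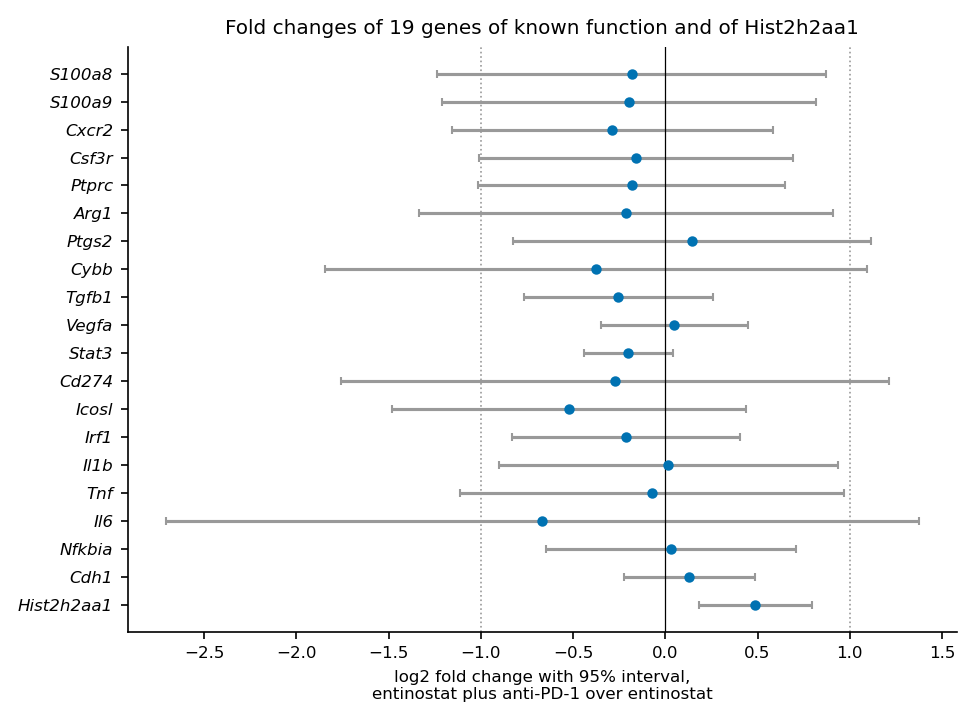
Log2 fold change of the combination over entinostat (points) with its 95% interval from limma (bars) for 19 genes of known function and Hist2h2aa1; dotted lines mark -1 and 1. The interval of Hist2h2aa1 excludes 0 before adjustment, those of Stat3 and Vegfa lie inside -1 to 1, and that of Il6 runs from -2.71 to 1.38.

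Neutrophil granule and maturation genes were slightly lower in mean. All 14 tested of 18 on the panel had a negative sign, none was called, and their median was -0.29 beside -0.14 for all genes. Under median centring 8 of the 14 were negative, with a median of -0.06. S100a9, the partner of S100a8 in calprotectin, measured 17414, 20641, 24140.2 and 12065 normalized counts in entinostat samples 1 to 4 and 16171, 14942, 13679 and 18314 in combination samples 1 to 4 (-0.20 ± 0.48 (SE), interval -1.21 to 0.82). Cxcr2, the receptor for neutrophil-attracting chemokines, measured 535, 608, 726 and 468 normalized counts in entinostat samples 1 to 4 and 485, 401, 471 and 542 in combination samples 1 to 4 (-0.29 ± 0.42 (SE)). Groups overlapped in both, and for S100a9 entinostat sample 3 was the highest and entinostat sample 4 the lowest of the 8. Hdc, the histamine-forming enzyme of granulocytes, had -0.42 ± 0.51 (SE), and Trem1, an amplifier of neutrophil activation, -0.32 ± 0.46 (SE). All 8 pan-leukocyte genes were negative too, with a median of -0.17, and Ptprc, the gene of CD45, measured 905, 1054, 1086 and 816 normalized counts in entinostat samples 1 to 4 and 809.8, 825, 796 and 958 in combination samples 1 to 4 (-0.18 ± 0.40 (SE)). The mean log2 level of these 8 genes was 8.31 to 8.80 with entinostat and 8.27 to 8.70 with the combination. With this mean as a covariate the median of the neutrophil list was -0.14, beside -0.048 for all genes. Itgb2 and Selplg belong to both lists. Median centring turned 7 of the 8 pan-leukocyte genes positive.

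Effectors by which these cells suppress T cells gave no call. Of 10 tested genes 8 were negative and 2 positive, with a median of -0.21, and after median centring 6 were positive. Arg1, which breaks down arginine, measured 31.9, 81.2, 71.5 and 40.5 normalized counts in entinostat samples 1 to 4 and 25.4, 23.4, 46 and 147 in combination samples 1 to 4 (-0.21 ± 0.54 (SE)). Combination sample 4 was the highest of all 8 and combination samples 1 and 2 were the lowest. Ptgs2, the prostaglandin-forming cyclooxygenase, measured 1832, 3286, 3799.7 and 2224 normalized counts in entinostat samples 1 to 4 and 3012, 3067, 2587 and 3177 in combination samples 1 to 4 (0.14 ± 0.46 (SE)). Cybb, a subunit of the superoxide-forming oxidase, had -0.38 ± 0.70 (SE). Tgfb1, a suppressive cytokine, had -0.25 ± 0.24 (SE) and Vegfa, the vascular growth factor, 0.05 ± 0.19 (SE) with an interval of -0.35 to 0.45. Nos2 (10.6 to 34.4 normalized counts over the 8 samples) and Il10 (5.99 to 18.7) were below the limit in every group mean.

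Inflammatory genes of the NF-kB and TNF list had no stable sign. Of 21 tested genes 10 were positive and 11 negative, and the median was -0.02. Positive were 17 after median centring (median 0.21), 2 without entinostat sample 4, 4 without entinostat sample 1 and 14 without combination sample 3. Il1b, the cytokine interleukin-1 beta, measured 10651, 14776, 16955 and 12378 normalized counts in entinostat samples 1 to 4 and 14356, 12769, 12632 and 14897 in combination samples 1 to 4, against a vehicle mean of 4953 ± 3464 normalized counts (SD, n = 6). The difference was 0.02 ± 0.44 (SE) with an interval of -0.90 to 0.93, and Il1b over vehicle was 1.67 with entinostat and 1.69 with the combination, both called. Tnf had -0.07 ± 0.50 (SE), Nfkbia, the inhibitor of NF-kB, 0.03 ± 0.32 (SE), and Tnfaip3, which codes for its negative regulator A20, -0.02 ± 0.42 (SE). The neutrophil chemokines Cxcl1 (0.14 ± 0.35 (SE)) and Cxcl2 (0.11 ± 0.50 (SE)) were also near 0. Of 7 genes of the interleukin-1 system 4 were positive, with a median of 0.02, and 7 after median centring, but 1 without entinostat sample 4. Lower ends of the intervals ran from -1.11 for Tnf to -0.60 for Cxcl1 among these 6 genes, so a smaller level in the combination remained possible. A higher level did too, as the intervals also reached above 0, to 0.93 for Il1b.

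The interleukin-6 and STAT3 list had 14 negative genes of 14 tested, with a median of -0.20 and none called. Under median centring 10 of the 14 became positive. Il6 itself measured 384, 214, 410.3 and 47.2 normalized counts in entinostat samples 1 to 4 and 98.8, 201, 75.8 and 166 in combination samples 1 to 4. Entinostat sample 4 was the lowest of all 8, and the fold change was -0.67 ± 0.98 (SE). Stat3, the transcription factor of this pathway, was the most precise member and measured 812, 866, 774 and 782 normalized counts in entinostat samples 1 to 4 and 795, 613, 676 and 741 in combination samples 1 to 4 (-0.20 ± 0.12 (SE), interval -0.44 to 0.04). Il6ra, the receptor chain, measured 198, 172, 213 and 162 normalized counts in entinostat samples 1 to 4 and 135, 131, 140.0 and 154 in combination samples 1 to 4 (-0.40 ± 0.40 (SE)), and Cebpd, a transcription factor of the acute phase, 56.7, 48.7, 75.3 and 54 normalized counts in entinostat samples 1 to 4 and 40.4, 38, 41.2 and 44.7 in combination samples 1 to 4 (-0.49 ± 0.45 (SE)). Both had all combination samples lower. Socs3, the feedback inhibitor, had -0.03 ± 0.44 (SE) and Csf3, which codes for G-CSF, -0.23 ± 0.32 (SE).

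Interferon-response genes gave no common direction. Of 8 tested genes of the interferon gamma list 5 were negative and 3 positive (median -0.21), and the counts were the other way round after median centring. Irf1, an interferon-induced transcription factor, measured 898, 1102, 1013 and 623 normalized counts in entinostat samples 1 to 4 and 805, 777, 671 and 823 in combination samples 1 to 4 (-0.21 ± 0.30 (SE)). The T cell-attracting chemokines Cxcl9 (6.71 to 24.5 normalized counts over the 8 samples) and Cxcl10 (14.4 to 36.0) were below the limit in every group mean, as was Ifng. Isg15, a type I interferon target, had 0.05 ± 0.32 (SE), opposite in sign to Mx1.

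Antigen-loading genes of MHC class I were mostly positive. Of 6 tested genes 5 were positive, with a median of 0.17, and no gene was called. The count was 5 of 6 under each of the 4 scalings. The other scalings moved the median of all genes up, from -0.14 to 0.10, 0.02 and 0.0013. Genes already positive were thus likely to stay so, and the unchanged count is no check of their direction. Tapbp, which holds MHC class I molecules at the peptide transporter, measured 213, 306, 259.7 and 245 normalized counts in entinostat samples 1 to 4 and 391, 290.5, 265 and 278 in combination samples 1 to 4 (0.25 ± 0.15 (SE)). The proteasome subunits Psmb8 (0.14 ± 0.21 (SE)) and Psmb9 (0.22 ± 0.35 (SE)) and the transporter subunit Tap2 (0.06 ± 0.13 (SE)) were positive, while Tap1 was negative (-0.29 ± 0.29 (SE)). Without entinostat sample 2 the count was 4 of 6. For MHC class II, 1 of 4 genes was positive, but all 4 were after median centring or without entinostat sample 2, and 3 without combination sample 1. Cd74, the invariant chain, measured 1079, 1873, 901 and 382 normalized counts in entinostat samples 1 to 4 and 567, 620.4, 828 and 1516 in combination samples 1 to 4, with entinostat sample 2 and combination sample 4 highest in their groups (-0.16 ± 0.94 (SE)).

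**Figure D4:**
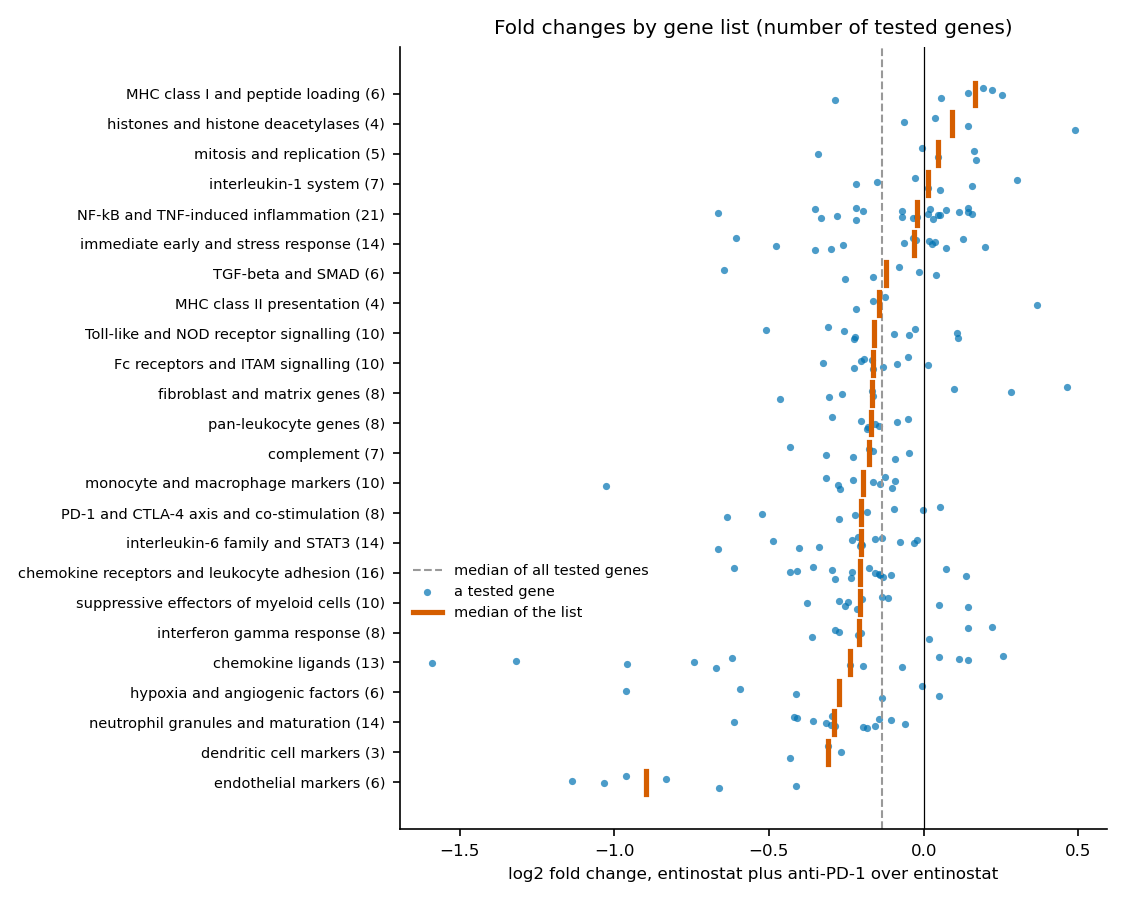
Log2 fold change of the combination over entinostat for each tested gene (blue points) of the 24 lists with at least 3 tested genes, the number of which follows the list's name; orange bars are list medians and the dashed line is the median of all 420 genes, -0.14. The endothelial list has the lowest median, -0.90, and that of MHC class I and peptide loading the highest, 0.17.

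Monocyte-attracting chemokines varied widely between samples of both groups. Ccl8 measured 687, 1884, 540.1 and 146 normalized counts in entinostat samples 1 to 4 and 102, 105, 186 and 617 in combination samples 1 to 4. Its mean log2 difference was the most negative of all tested genes (-1.59 ± 1.06 (SE), interval -3.81 to 0.63, adjusted p = 0.971 by limma), yet combination sample 4 was above entinostat samples 3 and 4. Ccl12 measured 37.2, 81.2, 47 and 24.7 normalized counts in entinostat samples 1 to 4 and 5.99, 5.84, 29.7 and 67.7 in combination samples 1 to 4 (-1.32 ± 0.81 (SE)), Ccl7 62, 111, 80.9 and 27 normalized counts in entinostat samples 1 to 4 and 19.5, 19, 25.9 and 102 in combination samples 1 to 4 (-0.96 ± 0.77 (SE)), and Ccl2 289, 353, 311 and 78.7 normalized counts in entinostat samples 1 to 4 and 102, 109, 99.7 and 344 in combination samples 1 to 4 (-0.67 ± 0.84 (SE)). In each, combination sample 4 stood at the level of entinostat samples 1 to 3, and the first 3 combination samples were nearer to entinostat sample 4. The 13 tested chemokine ligands included 9 negative and 4 positive genes (median -0.24). That median was -0.55 without entinostat sample 4, -0.67 without combination sample 4 and -0.0019 without combination sample 3.

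Macrophage markers varied in the same way between samples. The mean log2 level of 10 tested markers was 7.19, 8.42, 7.54 and 6.80 in entinostat samples 1 to 4 and 6.81, 6.46, 7.18 and 8.41 in combination samples 1 to 4. Entinostat sample 2 and combination sample 4 stood above the other samples of their groups, and the groups overlapped. All 10 genes were negative, with a median of -0.20, but 6 of 10 turned positive without entinostat sample 2 or without combination sample 2, and also under median centring. C1qa, a chain of the first complement component made by macrophages, measured 234, 803, 273 and 169 normalized counts in entinostat samples 1 to 4 and 198, 124, 303 and 898 in combination samples 1 to 4 (-0.09 ± 0.86 (SE)). Mrc1, the mannose receptor of macrophages, measured 103, 311, 122 and 47.2 normalized counts in entinostat samples 1 to 4 and 38.9, 23.4, 69 and 163 in combination samples 1 to 4 (-1.03 ± 0.88 (SE)), and Apoe, the lipid carrier apolipoprotein E, 705, 2274, 896 and 528 normalized counts in entinostat samples 1 to 4 and 559.8, 466, 884 and 2338 in combination samples 1 to 4 (-0.12 ± 0.74 (SE)). C1qa and Apoe were highest in entinostat sample 2 and combination sample 4, where Ccl8 also had its highest values within each group. The part of macrophage content in the chemokine differences was not tested.

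Endothelial genes had the lowest median of the lists. All 6 tested genes were negative under each of the 4 scalings, with a median of -0.90, and none was called. Selp, the vessel adhesion molecule P-selectin, measured 399, 209, 294 and 54 normalized counts in entinostat samples 1 to 4 and 86.8, 133, 53.7 and 89.4 in combination samples 1 to 4 (-1.14 ± 1.04 (SE), adjusted p = 0.971 by limma). Sele, E-selectin, measured 182, 123, 215 and 67.5 normalized counts in entinostat samples 1 to 4 and 74.8, 81.8, 38.4 and 76.4 in combination samples 1 to 4 (-1.03 ± 0.73 (SE)), and Cdh5, the cadherin of vessel junctions, 86.8, 104, 90.3 and 22.5 normalized counts in entinostat samples 1 to 4 and 31.4, 49.6, 34.5 and 53.3 in combination samples 1 to 4 (-0.66 ± 0.78 (SE)). Entinostat samples 1 to 3 were above every combination sample in Selp, Sele and Cdh5, while entinostat sample 4 was within or below them. The mean log2 level of the list was 7.12, 6.62, 7.07 and 5.17 in entinostat samples 1 to 4 and 5.60, 6.09, 5.25 and 5.67 in combination samples 1 to 4, against 4.85 over vehicle samples. Entinostat sample 4 had the lowest mean of the 8, and without it the median became -1.34. Hspg2, the basement membrane proteoglycan perlecan, had -1.11 ± 0.62 (SE) and Angpt2, a vessel growth regulator, -0.96 ± 0.56 (SE). The sort was for Ly6G, and neither the source of these transcripts nor the part of other cells in the difference was tested.

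**Figure D5:**
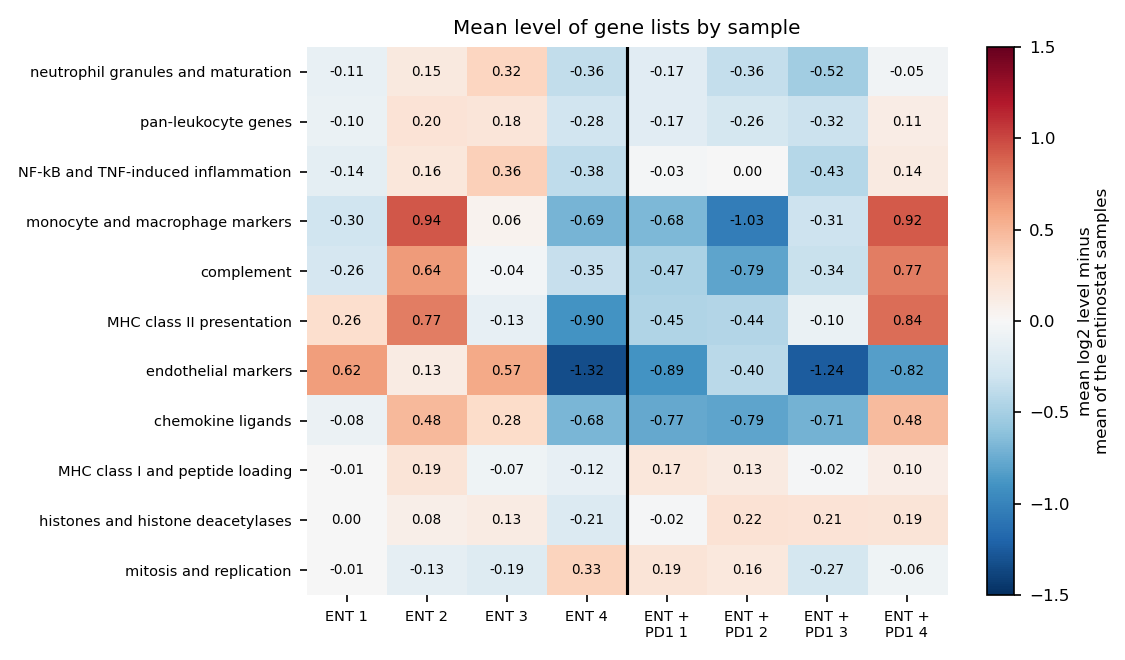
Mean log2 level of 11 gene lists in each of the 8 samples, minus the mean of the entinostat samples (red above, blue below, value printed in each cell). Monocyte and macrophage markers are highest in entinostat sample 2 (0.94) and combination sample 4 (0.92), and endothelial markers are above 0 in entinostat samples 1 to 3 only.

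Stromal and epithelial genes were steadier in median than endothelial genes. The median SD of log2 values was 0.31 with entinostat and 0.17 with the combination for fibroblast and matrix genes. It was 1.00 and 0.42 for endothelial genes, and 0.28 and 0.23 over all 420 tested genes. Of 8 tested fibroblast and matrix genes 5 were negative and 3 positive (median -0.17), and 3 negative after median centring; S100a4 belongs to this list. Col11a1, a fibrillar collagen, measured 356, 316, 305 and 405 normalized counts in entinostat samples 1 to 4 and 397, 361, 491 and 434 in combination samples 1 to 4 (0.28 ± 0.18 (SE)), and Col3a1, another, 609.5, 369, 612 and 153 normalized counts in entinostat samples 1 to 4 and 184, 385, 301 and 422 in combination samples 1 to 4 (-0.30 ± 0.69 (SE)). Cdh1, the one marker of the epithelial list above the limit, had 0.13 ± 0.17 (SE). A list of 8 epithelial genes put together after the values were seen had 7 positive genes, 1 negative gene (-0.27) and a median of 0.17. Their mean log2 level was 7.08 to 7.14 in the entinostat samples and 7.12 to 7.34 in the combination samples. Lamb3, a laminin chain of epithelial basement membrane in this list, had 0.30 ± 0.28 (SE), and Met, the receptor of hepatocyte growth factor, 0.28 ± 0.21 (SE). With Cdh1 as a covariate the fold change of Hist2h2aa1 was 0.41 and that of S100a4 0.38, and no gene was called.

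Remaining pathways had small medians. Of 6 genes of TGF-beta and SMAD signalling 5 were negative (median -0.12) and 2 after median centring, with Ski apart from Smad7 (-0.01 ± 0.17 (SE)) and Skil (-0.08 ± 0.12 (SE)). Immediate early and stress genes included 8 negative and 6 positive of 14 (median -0.03), and 5 negative after median centring. Atf3, a stress-induced transcription factor, had 0.03 ± 0.17 (SE), and Fosb, a partner of Jun, -0.35 ± 0.18 (SE). Toll-like and NOD receptor genes were negative in 8 of 10 (median -0.16) and in 3 after median centring, with Myd88, the shared adaptor, at -0.10 ± 0.35 (SE) and Clec7a, the beta-glucan receptor, at -0.31 ± 0.49 (SE). Fc receptor and ITAM genes were negative in 9 of 10 (median -0.17), in 5 with quantile normalization or TMM factors and in 1 after median centring, among them Tyrobp (-0.09 ± 0.49 (SE)), the adaptor DAP12, and Syk (-0.32 ± 0.46 (SE)), its kinase. Of the histone list, Hist1h1c, a linker histone, had 0.14 ± 0.14 (SE), Hdac5 -0.06 ± 0.26 (SE) and Hdac6 0.04 ± 0.21 (SE), so Hist2h2aa1 was alone there with an unadjusted p under 0.05. Of 5 mitosis and replication genes 3 were positive (median 0.05), with Top2a, the topoisomerase of dividing cells, at 0.17 ± 0.22 (SE).

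Spread was similar in size within both compared groups and larger within the vehicle group. The median SD of the log2 values over 420 genes was 0.28 with entinostat, 0.23 with the combination and 0.43 in vehicle samples. The SD was larger with entinostat for 245 genes (58.3%) and larger with the combination for 175. Combination sample 4 was the highest of its group for 211 genes (50.2%) and entinostat sample 4 the lowest of its group for 213. Against vehicle, 168 genes were called for entinostat and 92 for the combination by limma, and these counts share the vehicle samples and do not test the combination against entinostat.

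The study also had entinostat plus anti-CTLA-4 with and without anti-PD-1, 4 samples each, which allowed the effect of anti-PD-1 to be compared between both settings. No gene differed after adjustment (0 of 420, lowest adjusted p = 0.120 by limma), and 81 had an unadjusted p under 0.05, 4 with a positive and 77 with a negative difference (effect without minus effect with anti-CTLA-4). Recovered barcode counts were 23296 (sample 2) to 391309 with all 3 agents (triple combination) and 165662 to 443871 with entinostat plus anti-CTLA-4. Negative controls averaged 3.30 to 28.1 (sample 2) and 1.96 to 8.31 normalized counts. Without triple combination sample 2, 0 genes differed after adjustment. The part of depth and background in the negative differences was not tested. Hist2h2aa1 had a difference of 0.81 ± 0.21 (SE; adjusted p = 0.196 by limma), its mean being 1754 normalized counts with entinostat plus anti-CTLA-4 and 1397 with all 3 agents. With array weights 239 genes were called, and 1 without combination sample 1. All samples with anti-CTLA-4 but 1 ran on the second cartridge, and vehicle samples ran on both, 3 on each. With cartridge as a block 0 genes differed (lowest adjusted p = 0.0976 by limma), and the difference of Hist2h2aa1 was 0.79 ± 0.21 (SE; adjusted p = 0.169 by limma). The exception, triple combination sample a, lay beside vehicle samples, while a vehicle sample lay beside the triple combination, and their labels were kept; without both of them no gene was called for anti-PD-1 added to entinostat.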

How the data were processed

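RNA from sorted cells was counted with NanoString's mouse myeloid panel. The deposited values are a linear signal (normalized barcode counts) in 22 samples, covering 655 endogenous and 20 housekeeping genes besides 8 negative and 6 positive controls. How the authors normalized them is not given in the sources used here. Limma is named in the submitters' processing notes, with no version or role. In each of the 8 samples compared, 100% of the values up to 200 came out whole (to 0.1 count) once divided by the worth of a single barcode, which recovered barcode counts, used for depth and for count tests. No column was left unused.

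Groups follow the sample titles. Limma 3.58.1 (R 4.3.3) was fitted to log2(normalized count + 1), with 5 group means over 22 samples (17 residual and 2.14 prior degrees of freedom). Genes were tested if the mean log2 value of any group lay more than 2 SD above the negative controls' mean. This left out 235 genes. Tests were two-sided, Benjamini-Hochberg adjusted over 420 genes and called under 0.05. Single genes were also given an exact permutation test. Lists were described by counts and medians, with no set test.

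The alternatives covered pseudocount, filter, scaling, background, samples, cartridge, weights, covariates and left-out replicates, plus edgeR 4.0.16 and DESeq2 1.42.0 on the counts of the 8 samples, where recovery was accepted. Scripts were tested on simulated data. Genes named are the 8 with the smallest p and the 5 with the largest fold change in each direction, in each list the 2 with the smallest p and the 2 with the highest level, a fixed set of 30 myeloid and checkpoint genes, and the genes without overlap; a few of these are not reported here. The comparison, gene lists and rule were chosen with earlier results of these data known. The labels do not say whether replicate numbers pair the samples, and the reported fit used no pairing. Same-numbered deviations correlated at -0.15, -0.43, -0.30 and -0.43, which cannot exclude a pairing. Pairs of samples in a group differed beyond sampling noise (chi-square per degree of freedom 3.00 to 11.5), so none was treated as a repeat count of the same RNA. Separate samples from the same animal could differ in this way too, so this does not show that each came from another animal.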

Additional observations from a re-analysis of the deposited data

Results flagged for a closer look

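Within groups of 4 samples, 15 of 278 sets of values held a sample far from the other 3 by Dixon's criterion, and chance alone gives about 1 in 20. Entinostat sample 2 was apart for Amica1, an adhesion molecule (48.7 normalized counts against 33.7 to 35.8), and for C1qb, a complement chain of macrophages (826 against 234 to 280.4). Entinostat sample 3 was apart for Fscn1 (67.8 against 44.3 to 47.2). Entinostat sample 4 had little Ly6c1, a surface antigen of monocytes and vessels (72 normalized counts against 213 to 244).

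Combination sample 3 was low for 4 inflammatory or vessel genes. It held 2304 normalized counts of Cxcl1 against 3340 to 3570, 1026 of Icam1 against 1525 to 1566, 3046 of Tnfaip3 against 3823 to 4005, and 38.4 of Sele against 74.8 to 81.8. Combination sample 4 was high for H2-DMa, a loader of MHC class II peptides (70.6 normalized counts against 24.8 to 28.8), for Sirpa, an inhibitory receptor of myeloid cells (474 against 354 to 371), for Syk (449.7 against 328 to 345) and for Vwa5a (118 against 112.2 to 112.4).

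List means gave 3 more. Combination sample 4 had a mean log2 level of 8.97 for the suppressive effectors, where the others had 8.41 to 8.44, and of 8.41 for the chemokine ligands, where the others had 7.14 to 7.22. Combination sample 1 had 7.94 for histones and histone deacetylases, against 8.15 to 8.17.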

How the results depend on the processing

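The count of genes called was 0 under 24 of 27 alternatives. It was 3 with limma array weights, 1 with edgeR and TMM factors and 2 with DESeq2. Genes at an unadjusted p under 0.05 numbered 7 in the reported fit, 4 after median centring, 36 in a fit of the 8 samples alone, 14 with cartridge 1 only, 84 with array weights, 16 with the pan-leukocyte mean as a covariate, 42 with edgeR and lane factors, 38 with edgeR and TMM factors and 30 with DESeq2. With the replicate block, 0 genes were called and 18 had an unadjusted p under 0.05; the block changed no other call. The median log2 fold change of -0.14 became 0.10 after median centring, 0.019 after quantile normalization, -0.0018 with the epithelial covariate, 0.0013 with edgeR and TMM factors and -0.0026 with DESeq2. Genes with all combination samples higher (5) numbered 22 after median centring and 11 after quantile normalization. Those with all lower (15) numbered 3, 8 and, after background subtraction, 9. The cause of these changes was not tested. Intervals inside -1 to 1 were held by 219 to 360 genes under the 24 alternatives for which intervals were computed, which leaves out edgeR and DESeq2. The difference between anti-PD-1 without and with anti-CTLA-4 had 239 calls with array weights.

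With each of the 8 samples left out in turn, 0 genes were called each time, and 6 to 18 had an unadjusted p under 0.05 (18 without entinostat sample 4). The median ran from -0.20 to -0.084, and the difference between settings had 0 to 1 calls. Genes without overlap numbered 5 to 14 higher and 17 to 66 lower (14 and 66 without entinostat sample 4). Leaving out a sample can only keep or raise these counts, which were 5 and 15 with all 8 samples. Groups also separate more often by chance when they hold fewer samples, so the larger counts are no sign of a difference. Of 109 genes chosen by the rule, 9 turned sign by more than their standard error, all under median centring: C3 (0.18), Cd276 (0.13), Col4a1 (0.067), Dusp1 (0.17), Hif1a (0.095), Nfkb1 (0.014), Skil (0.15), Smad7 (0.22) and Stat3 (0.032). Smaller sign changes bring the total to 172 of 2942 gene values. The comparison had 4 samples a group, lower depth in every entinostat sample, and 235 genes below the detection limit.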

Other observations

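Of 16 tested chemokine receptors and adhesion genes 14 were negative in the combination against entinostat, 2 were positive and none was called by limma, with a median log2 fold change of -0.20 beside -0.14 for all 420 genes. After median centring 9 of the 16 were positive. Cxcr4, the receptor that retains neutrophils in bone marrow, measured 1247, 1418, 1669 and 1079 normalized counts in entinostat samples 1 to 4 and 1221, 979.5, 1104 and 1258 in combination samples 1 to 4 (-0.23 ± 0.40 (SE)), and the groups overlapped. Ccrl2, a receptor that presents the chemoattractant chemerin, had 0.14 ± 0.46 (SE). Siglecf, a lectin of eosinophils that tumour neutrophils can also carry, measured 443, 594, 646 and 445 normalized counts in entinostat samples 1 to 4 and 573, 511, 506 and 644 in combination samples 1 to 4, above the vehicle mean of 210.3 ± 105 normalized counts (SD, n = 6) in every sample, and its fold change was 0.08 ± 0.37 (SE).

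The 7 complement genes were all negative, with a median of -0.18, and none was called by limma. Their direction followed the scaling and single samples: median centring left 2 of 7 negative, TMM factors left 3, and the median was 0.098 without entinostat sample 2 and 0.023 without combination sample 2. C5ar1, the receptor of the chemoattractant C5a on neutrophils and macrophages, measured 716, 808, 1054 and 649.8 normalized counts in entinostat samples 1 to 4 and 684, 604, 609 and 959.9 in combination samples 1 to 4 (-0.18 ± 0.50 (SE)). C3, the central complement protein, had -0.05 ± 0.20 (SE), and C3ar1, the receptor of its fragment, -0.16 ± 0.69 (SE). Of 6 hypoxia and angiogenic genes 5 were negative (median -0.27), and 3 after median centring. Among them Hif1a, the oxygen-sensing transcription factor, measured 870.0, 847, 997 and 654 normalized counts in entinostat samples 1 to 4 and 718, 671, 771 and 886 in combination samples 1 to 4 (-0.14 ± 0.17 (SE), interval -0.49 to 0.22), and Thbd, thrombomodulin of vessels and myeloid cells, 138, 107, 205 and 31.5 normalized counts in entinostat samples 1 to 4 and 47.9, 97.8, 44.1 and 87.9 in combination samples 1 to 4 (-0.59 ± 0.82 (SE)). Entinostat sample 4 was the lowest of the 8 for both. Of the 3 dendritic cell markers above the limit all were negative (median -0.31), also after median centring, while 1 of 3 was positive with quantile normalization or TMM factors. Cd83, an activation antigen of such cells, measured 175, 411, 243 and 126 normalized counts in entinostat samples 1 to 4 and 114, 81.8, 199 and 502 in combination samples 1 to 4, with its highest values in entinostat sample 2 and combination sample 4.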
